A study of Mus musculus with 132 samples.

Results

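The step from Flk1+ mesoderm to CD41+ hematopoietic progenitor cells (HPCs) was measured in mouse embryonic stem cell clones that lack the CTCF site next to the P2 promoter of Runx1 (P2-CTCF-KO). By the sample labels, 8 of the 132 samples of the series hold poly(A)-minus RNA of these clones, 3 of mesoderm at day 4 and 5 of HPCs at day 7. Clones D10.1 and D2.1 gave 1 mesoderm library and 2 HPC libraries each, and clone E9.1 gave 1 of each. All cells were of the male line E14-TG2a, strain 129/Ola. For comparison, wild-type cells (clones C8.1, C6.1 and B9.3) gave 3 mesoderm libraries and, with a second one of B9.3, 4 HPC libraries, and clones that lack the CTCF site next to the other promoter (P1-CTCF-KO) gave 3 and 3. Embryoid bodies were grown without serum with BMP4, and bFGF and Activin A were added at day 3. Flk1+ cells were sorted at day 4 and kept in SCF and VEGF for the rest of the culture, after which cells with CD41 and without CD45 or Ter119 were sorted. Each KO clone was raised from a single cell after Cas9 cutting with a pair of guides, and both alleles carry deletions. A clonal difference that arose in culture therefore stays in every library of that clone. Throughout, a step is HPCs minus mesoderm on a log2 scale, and a positive value means more RNA in HPCs.

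CTCF binds DNA in a directional way and, with cohesin, anchors chromatin loops and domain borders. Runx1 encodes a transcription factor needed for the emergence of blood cells from hemogenic endothelium, and it is read from a distal promoter, P1, and a proximal promoter, P2. Mesoderm with Flk1 (Kdr, a VEGF receptor) holds the precursors of endothelium and blood, and CD41 (Itga2b, an integrin of platelets) marks the first blood progenitors. Poly(A)-minus RNA is rich in nascent transcripts that still hold introns, so the counts over exons and introns follow transcription more closely than the mature RNA.

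The site itself is shown because every P2-CTCF-KO library carries its loss. The CTCF peak called in 416B myeloid progenitor cells beside the annotated P2 start lies at chr16:92698817-92699340 (mm9, 524 bases), inside the span of Runx1, in sequence that is intronic for transcripts from P1, and the gene runs on the minus strand. Within it, the letters CCAGNNGGC, a part of the CTCF core, were found on the plus strand 1490 bases upstream of the P2 start at position 92697573. The plus strand of chr16:92699023-92699111 reads as follows, with the matching letters in capitals.
P2 CTCF site: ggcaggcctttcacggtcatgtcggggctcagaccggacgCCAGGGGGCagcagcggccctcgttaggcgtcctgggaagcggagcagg
These letters were chosen after a longer form of the core had 0 matches in this peak. On either strand, they stood in 15.1% of 43193 CTCF peaks and in 5.46% of 49428 evenly spaced windows, all cut to 524 bases, whereas the longer form stood in 54.8% of the peaks and in 5.32% of the windows. A match describes the letters only. The exact ends of the deleted alleles were not read here.

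The 3 P2-CTCF-KO mesoderm libraries held 18421682 to 24406998 counts and the 5 HPC libraries 7805102 to 13513677. Ribosomal RNA and entries listed at several loci took 89.3% to 91.0% of the counts in mesoderm and 88.2% to 89.1% in HPCs, which left 1897917 to 2201942 and 878966 to 1584401 counts for all other genes. Values below are CPM, counts scaled to the size of each library by the TMM method, and they are listed for mesoderm in the order D10.1, D2.1, E9.1 and for HPCs in the order D10.1, second library of D10.1, D2.1, second library of D2.1, E9.1. Wild-type values are listed in the order B9.3, C6.1, C8.1 for mesoderm and B9.3, second library of B9.3, C6.1, C8.1 for HPCs. A second library shares its clone with the first, so p-values measure the spread between libraries, which may be partly technical. All pairs of libraries within a group differed by more than counting noise (chi-square per gene from 6.23 in P2-CTCF-KO mesoderm and from 11.9 in HPCs), so each was kept as 1 sample. In bulk RNA, fewer cells of a kind and less RNA per cell cannot be told apart. With edgeR, 9170 genes were tested, and those with a fitted log2 difference beyond 1 in either direction and an adjusted p under 0.05 were called.

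Libraries of 1 group were not alike, and this touched several gene groups below. The HPC library D2.1 held a summed 124 CPM of 22 endothelial genes, against 19.8 to 55.4 in the other 4 P2-CTCF-KO HPC libraries, with 3.34 CPM of 16 primitive streak genes against at most 0.159, and 89.4 CPM of erythroid genes against 196 to 450. The HPC library D10.1 held 822 CPM of megakaryocyte genes against 97.9 to 172 in the others. Stromal and smooth muscle genes summed to 26.7 and 22.8 CPM in HPC libraries D10.1 and D2.1 and to 1.3 to 6.39 in the others. Among wild-type mesoderm, B9.3 held 189 CPM of endothelial genes against 57.2 and 63.0. Among wild-type HPCs, B9.3 held 106 CPM of stromal genes against 2.00 to 3.85 in the others. Values without D2.1 or B9.3 are given beside the lists and genes that moved with them.

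**Figure D1:**
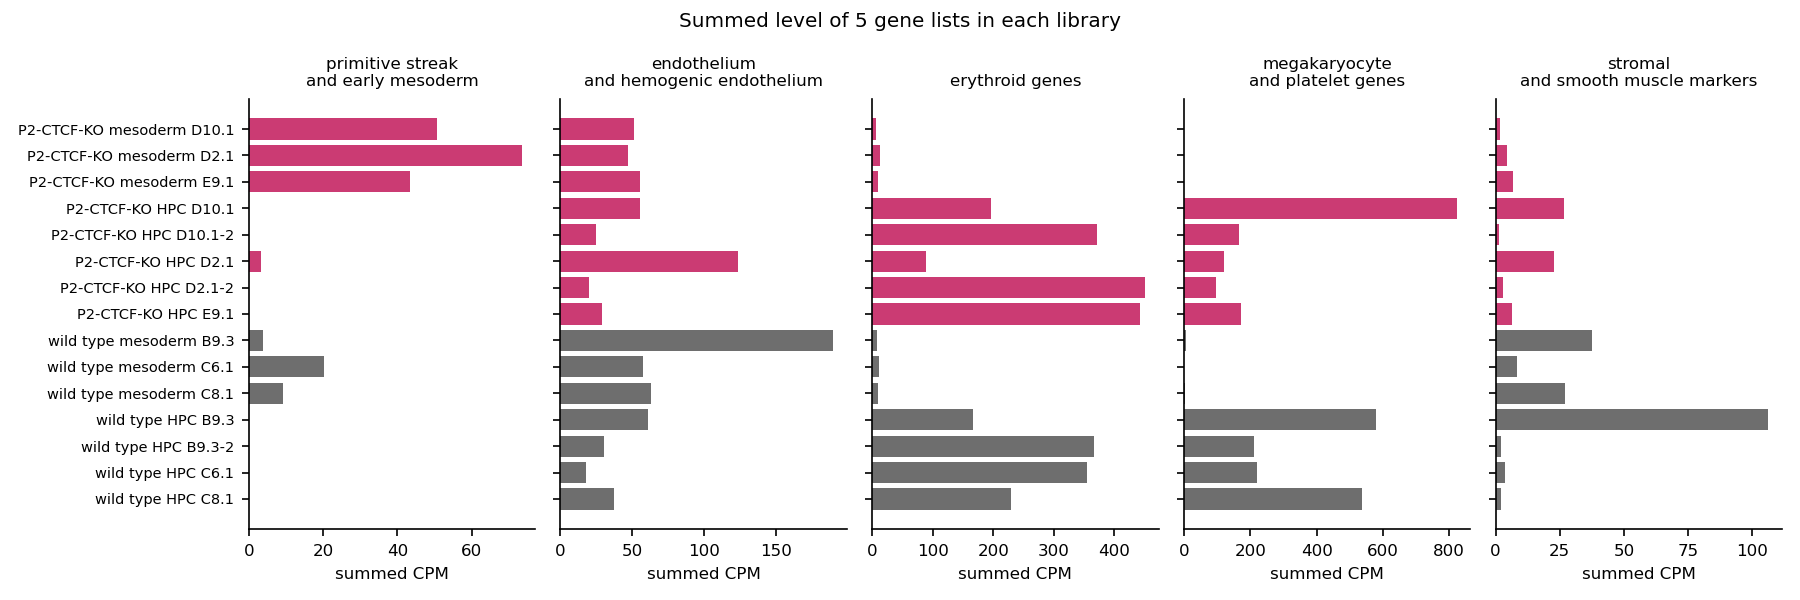
Summed CPM of 5 marker lists (horizontal axes, 1 panel per list) in each P2-CTCF-KO and wild-type library, 1 bar per library, where -2 marks a second library of a clone. In P2-CTCF-KO HPCs the library D2.1 stands at 124 CPM for endothelial genes and D10.1 at 822 CPM for megakaryocyte genes, apart from the others of that group.

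Runx1 (chr16:92601710-92826319, mm9), next to whose P2 promoter the site was deleted, was measured first. In P2-CTCF-KO mesoderm it stood at 1.74, 6.37 and 5.74 CPM and in HPCs at 122, 69.6, 45.3, 38.5 and 51.1 CPM. The stages did not overlap, and clone D10.1 had both the lowest mesoderm value and the highest HPC value. Runx1 rose by 3.83 ± 0.57 (log2 ± SE, adjusted p = 6.6e-05), and the difference of clone means as log2(CPM + 0.1) was 5.71 in D10.1, 2.70 in D2.1 and 3.13 in E9.1. An exact two-sided permutation test of the mean log2(CPM + 1) gave a difference of 3.56 and p = 0.0357, the smallest value that 3 against 5 libraries allow. The wild-type step of Runx1 was 3.16, from 3.40, 10.8 and 13.2 CPM to 76.4, 64.2, 72.1 and 112 CPM, and the P1-CTCF-KO step was 3.96. The P2-CTCF-KO step exceeded the wild-type step by 0.67 ± 0.70 (adjusted p = 0.97), a difference smaller than its error.

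The neighbours of Runx1 were mostly too low to test. Of 10 listed genes, 3 passed the filter on low counts, and Runx1 was the only one of them called. Setd4, a methyltransferase gene, had a step of -1.04 (adjusted p = 0.21) and Rcan1, which encodes a calcineurin regulator, one of 0.33 (adjusted p = 0.42). Cbr1, Cbr3, Clic6 and Kcne1 were under the filter, Kcne2 had no counts in P2-CTCF-KO libraries, and Dopey2 and Gm16801 were not found by name.

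The sorted identities were checked on their markers. Kdr, the sort marker of day 4, stood at 21, 21.8 and 25.4 CPM in P2-CTCF-KO mesoderm and at 8.36, 3.48, 15.5, 3.30 and 3.93 CPM in HPCs. Pdgfra, a receptor of early mesoderm, stood at 14.4, 14.5 and 11.9 CPM and then at or under 0.119 CPM in every HPC library. Itga2b, the sort marker of day 7, went from 0.359, 0.157 and 0.252 CPM to 65.2, 13.3, 8.58, 10.5 and 15 CPM. As the sorts used Kdr and Itga2b, their steps check the labels and are no findings. Ptprc, which encodes the CD45 that the day 7 gate excludes, stood at 0 to 0.239 CPM in HPCs, and endoderm markers summed to at most 0.324 CPM in any P2-CTCF-KO library.

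**Figure D2:**
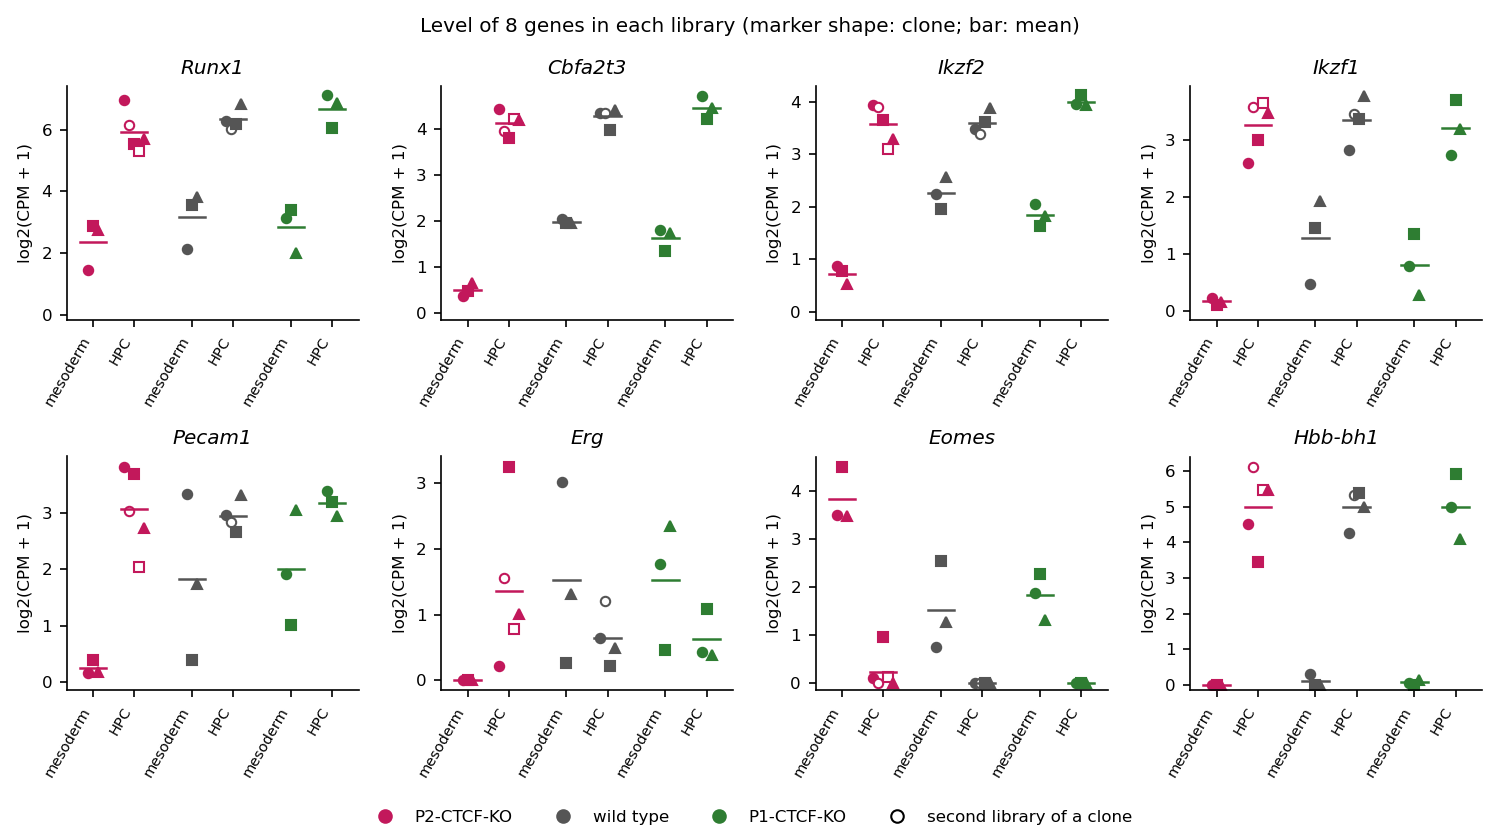
Levels of 8 genes as log2(CPM + 1) in each library of P2-CTCF-KO, wild-type and P1-CTCF-KO mesoderm and HPCs, where the marker shape gives the clone, an open marker a second library and a bar the mean. Runx1, Cbfa2t3, Ikzf2 and Ikzf1 stand higher in HPCs than in mesoderm in P2-CTCF-KO without overlap, and Cbfa2t3 and Ikzf2 stand lower in P2-CTCF-KO mesoderm than in wild-type mesoderm.

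Across all genes, the P2-CTCF-KO step called 2588 of 9170 genes (28.2%), 1515 higher in HPCs (16.5%) and 1073 lower (11.7%). This balance depended on the setting, with 1519 higher and 1615 lower without the filter on low counts, and 1533 higher and 1599 lower without HPC library D2.1 and wild-type mesoderm B9.3. The median step of all genes was 0.09. Of the higher calls, 1501 went up in all 3 clones, and 1316 had no overlap between the stages' libraries, as did 914 of the lower calls and 3236 of all genes tested (35.3%). The calls were made on these same libraries, so the shared direction of the clones is no independent replication. The wild-type step called 2498 genes (27.2%), 1224 higher (13.3%) and 1274 lower (13.9%), with a median of 0.01. Higher in both were 993 genes, 65.5% of the P2-CTCF-KO calls and 81.1% of the wild-type calls, and lower in both were 799 genes, 74.5% and 62.7%. Of the 1515 genes higher in P2-CTCF-KO HPCs, 1455 had a positive step in wild type, and of the 1073 lower ones 1068 had a negative step. Across genes, which are not independent, both steps correlated with Pearson's r of 0.832 and share no library.

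**Figure D3:**
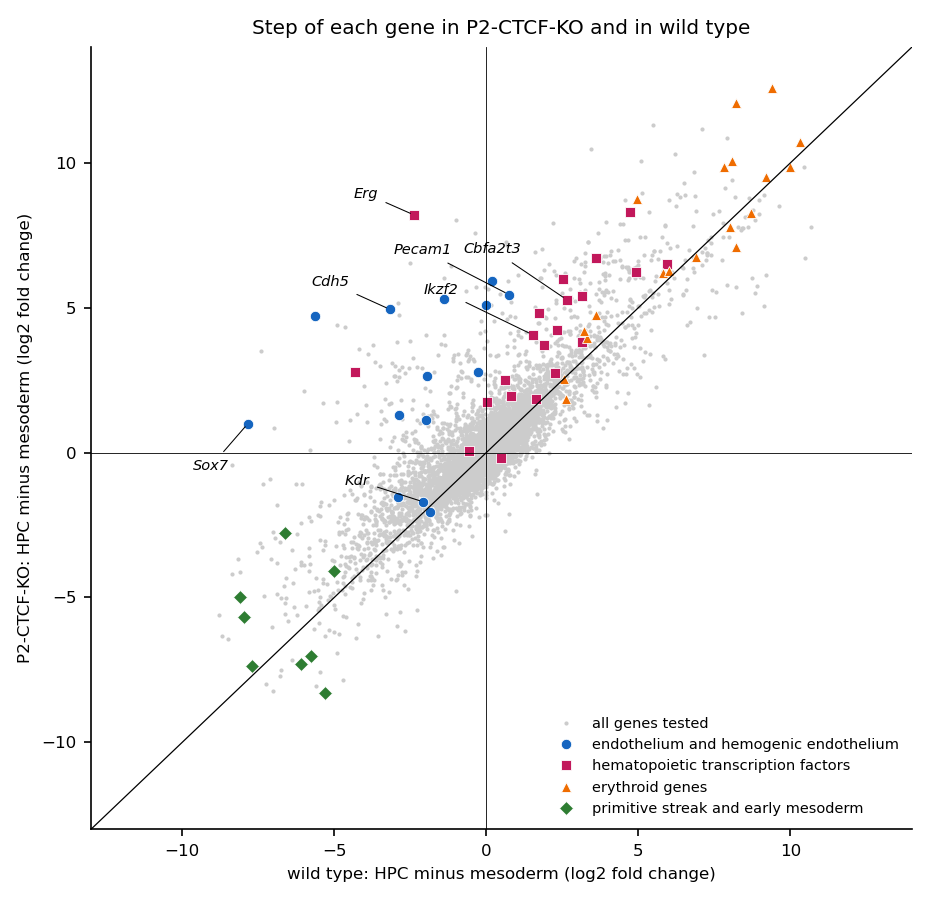
Wild-type step (horizontal axis) against P2-CTCF-KO step (vertical axis), both as log2 HPC over mesoderm, 1 point per gene tested, with members of 4 lists coloured. Most genes lie along the diagonal, and endothelial genes such as Cdh5, Pecam1 and Sox7 lie above it, as do Cbfa2t3 and Ikzf2.

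Of the genes called higher in P2-CTCF-KO whose libraries do not overlap, the 10 with the smallest adjusted p are named. Epb41, which encodes a protein of the red cell membrane skeleton, rose by 4.07 ± 0.32, from 4.31, 4.79 and 5.23 CPM to 125, 82.9, 42.9, 69.3 and 80.2 CPM. Gypc, a glycophorin gene of the same skeleton, rose by 6.14 ± 0.42. The lowest HPC value of both was that of library D2.1. Mbnl1, a splicing regulator, rose by 6.95 ± 0.58 and Prkar2b, a regulatory subunit of protein kinase A, by 5.95 ± 0.50. Susd1 rose by 5.53 ± 0.49. Tspan32, a tetraspanin of blood cells, had no counts in mesoderm and at least a 167-fold higher level in HPCs against a floor of 3 counts over the group. Adgrg1, an adhesion receptor of blood stem cells, had 3 counts in mesoderm and 816 in HPCs, a ratio of 193 (95% counting interval 65.8 to 938). Nmnat3, a mitochondrial NAD enzyme, had a ratio of 338 (93.4 to 2798). Cbfa2t3 and Ikzf2 complete these 10 genes and are described below.

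By the same rule, 10 genes called lower are named. Pdgfra fell by 7.59 ± 0.56 on the log2 scale. Celsr1 and Vangl2, components of planar cell polarity, had steps of -6.14 ± 0.61 and -2.53 ± 0.25. Celsr1 went from 12.2, 8.25 and 7.25 CPM to between 0 and 0.298 CPM. Snai1, a driver of epithelial-to-mesenchymal transition, had a step of -6.01 ± 0.49, Sall1, a zinc finger regulator, one of -5.64 ± 0.57 and the Wnt receptor gene Fzd7 one of -5.69 ± 0.57. Acvr2b, an activin receptor gene, had a step of -2.84 ± 0.26, the corepressor gene Tle3 one of -2.27 ± 0.21, the histone demethylase gene Kdm6b one of -2.13 ± 0.16 and the kinase gene Sik1 one of -2.13 ± 0.21. Kdm6b stood at 17.1, 17.8 and 20.7 CPM in mesoderm and between 3.56 and 5.26 CPM in HPCs, without overlap, as the naming rule requires. These 20 genes were named for their p-values, so their steps are a description of the list's ends.

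Primitive streak and early mesoderm genes fell together. Of 16 listed genes, 8 were tested and 7 were lower in P2-CTCF-KO HPCs, with 0 higher, beside 11.7% of all genes lower. Genes near 0 in HPCs pass the filter through their mesoderm counts alone, so this count describes the list and carries no further weight. The median step was -6.36, or -5.76 with a gene at 0 counts in HPCs set at its bound, and without library D2.1 all 8 tested were lower with a median of -8.51. Eomes, a T-box factor of the streak, stood at 10.4, 21.6 and 10.2 CPM in mesoderm and at 0.0797, 0, 0.954, 0.0891 and 0 CPM in HPCs (step -5.69 ± 0.80, adjusted p = 1.2e-04). Mixl1, a homeobox factor of the streak, stood at 8.74, 27.4 and 13.2 CPM and in HPCs at 0 in all but library D2.1 (0.358 CPM). T (Brachyury) had 174 counts in mesoderm and 1 in HPCs, a ratio of 245 (43.4 to 9743), and Evx1 had none in HPCs, at least 57.4-fold lower. The only HPC library with appreciable streak RNA was thus D2.1. In wild type, 7 of the 8 were lower as well, with a median of -6.36 (-4.38 with 7 genes at their bound). The level they fell from was not the same: the list summed to 50.7, 73.4 and 43.3 CPM in P2-CTCF-KO mesoderm and to 3.85, 20.2 and 9.18 CPM in wild-type mesoderm, without overlap. None of the 8 differed between the steps at an unadjusted p under 0.05, and the median difference was 0.63, or -1.04 with genes at their bound. Without library D2.1 it was -2.65, so its sign depends on that library and on how zeros are treated.

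Most lateral plate and cardiac genes fell. Of 10 tested of 17, 7 were lower and 1 higher in P2-CTCF-KO HPCs, beside 11.7% and 16.5% of all genes. Their median step was -3.46, against -3.38 in wild type. Members near 0 in HPCs, such as Pdgfra and Hand1, pass the filter through their mesoderm counts alone. The count of lower genes therefore describes the list and carries no further weight. Hand1, a factor of extraembryonic and lateral mesoderm, stood at 2.15, 2.51 and 6.68 CPM and then at or under 0.298 CPM (step -5.04 ± 0.92). Gata4, a cardiac and endoderm factor, had a step of -3.57 ± 0.86 and reached 4.05 CPM in HPC library D2.1 against at most 0.319 in the others, and without that library its step was -6.70. The gene that rose was Tnnt2, cardiac troponin T, by 4.28 ± 1.44, from at most 0.126 CPM to 5.89, 0, 0.775, 0.0891 and 0.457 CPM. Its highest value was in library D10.1, and the stages overlapped.

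Many signalling genes of the mesoderm fell. Members near 0 in HPCs, such as Bmp7, pass the filter through their mesoderm counts alone. The counts of lower genes therefore describe these lists and carry no further weight. In the Wnt pathway, 12 of 18 tested genes were lower and 0 higher, beside 11.7% of all genes lower (median -3.22), and 16 were lower in wild type (median -3.64). Without library D2.1, 14 of 18 were lower in P2-CTCF-KO, with a median of -4.31. Axin2, a target and inhibitor of Wnt signalling, went from 14.4, 9.35 and 11.7 CPM to 0.239, 0.243, 1.43, 0.178 and 0.365 CPM, a step of -4.45 ± 0.61. Lef1, a nuclear effector, had a step of -4.11 ± 0.81 and Wnt5a, a ligand, one of -3.77 ± 0.57. In the BMP and TGF-beta pathway, 10 of 19 were lower and 1 higher (median -1.40), and 14 were lower in wild type (median -2.21). Without library D2.1, 15 of 19 were lower and the median was -2.42. The ligand gene Bmp7 had 109 counts in mesoderm and 2 in HPCs, the effector Smad1 had a step of -3.01 ± 0.60 and the target Id1 one of -3.84 ± 0.62. The gene that rose was the ligand Tgfb1, by 1.5 ± 0.42, from 3.41, 2.59 and 3.47 CPM to 21.6, 6.56, 6.32, 4.46 and 5.75 CPM. In the Notch pathway, 5 of 9 were lower and 0 higher (median -2.03), and 5 were lower in wild type (median -2.90). Those lower in P2-CTCF-KO included the receptor genes Notch2 (-2.03 ± 0.37) and Notch3 (-3.38 ± 0.61) and the target Hes1 (-4.35 ± 0.68). Notch4, an endothelial receptor gene, had a step of 3.10 ± 1.57 that missed the threshold (adjusted p = 0.13), with 3.87 CPM in library D2.1 against at most 0.639 in the other HPC libraries, and without D2.1 its step was 1.02 (adjusted p = 0.63).

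Of 12 tested genes of epithelial-to-mesenchymal transition and cadherins, 5 were lower and 1 higher, beside 11.7% and 16.5% of all genes (median -2.09). Here too, members near 0 in HPCs pass the filter through their mesoderm counts alone, so the count of lower genes describes the list. In wild type, 8 were lower (median -2.56). Without library D2.1, 8 of 11 were lower in P2-CTCF-KO, with a median of -4.23. Fn1, fibronectin, went from 431, 297 and 507 CPM to 13.6, 12.7, 91.6, 20.9 and 21.6 CPM, a step of -3.68 ± 0.72. Zeb2, a repressor also used in blood progenitors, rose by 2.01 ± 0.38. Of the pluripotency list, 1 of 12 genes was tested, Tdgf1, a Nodal co-receptor gene, with 144 counts in mesoderm and 2 in HPCs. Of 30 Hox genes, 1 was tested and was not called.

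Hematopoietic transcription factors rose. Of 24 listed genes, 21 were tested, and 17 were higher in P2-CTCF-KO HPCs and 0 lower, beside 16.5% of all genes higher. Members near 0 in mesoderm, such as Gata1 and Gfi1b, pass the filter through groups where they are high. The count of higher genes therefore describes the list and carries no further weight. The median step was 4.07 (3.83 with 3 genes at their bound), and without library D2.1 17 were higher and the median was 4.05. Gata1, the erythroid and megakaryocyte factor, had 1 count in mesoderm and 173 in HPCs, a ratio of 123 (21.7 to 4875). Gfi1b, a repressor that shuts down the endothelial program, had 2 counts in mesoderm and 242 in HPCs, a ratio of 85.8 (23.5 to 713). Tal1, a factor that specifies blood, went from 0.120, 0.314 and 1.39 CPM to 13.3, 8.26, 4.53, 5.97 and 8.31 CPM and rose by 3.70 ± 0.50. Fli1, an ETS factor of blood and endothelium, rose by 4.82 ± 0.86, Meis1, a homeobox cofactor, by 5.39 ± 1.02, and Lmo2, a partner of Tal1, by 2.76 ± 0.37. Those not called were Gata2 (0.06 ± 0.36), Hhex, Bcl11a and Mecom. Mecom, a regulator of blood stem cells, had a step of 2.77 ± 1.22 (adjusted p = 0.082) that rested on HPC library D2.1, with 9.54 CPM there against 0.239 to 2.92 CPM in the others, and without D2.1 the step was 1.57 (adjusted p = 0.29).

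Genes of red cells and platelets rose. In each of both lists, 11 of the 19 genes tested had no counts in P2-CTCF-KO mesoderm, so their fitted steps depend on the prior count. The 19 erythroid genes tested, of 21 listed, were all called higher in P2-CTCF-KO HPCs, beside 16.5% of all genes. In wild type, all 19 were called higher too, beside 13.3% of all genes. The medians were 7.77 and 7.81 (5.83 and 5.91 with genes at their bound). The embryonic globin gene Hbb-bh1 had no counts in mesoderm and stood at 22.0, 67.7, 9.96, 43.2 and 42.9 CPM in HPCs, at least 561-fold higher. Tfrc, the transferrin receptor gene, was already measured in mesoderm at 2.69, 6.60 and 5.49 CPM and rose by 2.55 ± 0.48. The day 7 gate left out cells with Ter119, a surface marker of later red cells. Of 19 megakaryocyte and platelet genes tested of 20, 18 were higher in P2-CTCF-KO and 18 in wild type, beside the same shares. Their medians were 8.04 and 7.25 (5.58 and 5.49 with bounds). Itgb3, the partner of CD41, had 1 count in mesoderm and stood at 173, 38.1, 29.2, 18.6 and 30.1 CPM in HPCs. Thbs1, thrombospondin, rose by 8.04 ± 0.99 and reached 217 CPM in library D10.1 against 25 to 51.2 CPM in the others. Pf4, a platelet chemokine gene, stood at 12.7 CPM in D10.1 and at 0.162 to 0.457 CPM in the other HPC libraries. Library D10.1 was the highest P2-CTCF-KO HPC library for each of the 19 genes tested. The listed genes summed to 822 CPM there and to 166 CPM in the second library of the same clone.

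Leukocyte genes were low in these cells. Of 21 listed genes, 7 passed the filter and all 7 were called higher in P2-CTCF-KO HPCs, beside 16.5% of all genes. As for the red cell and platelet lists, genes near 0 in mesoderm pass the filter through their HPC counts alone, so such counts describe the lists and carry no further weight. Laptm5, a lysosomal protein gene of leukocytes, had 1 count in mesoderm and 171 in HPCs, and Csf2rb, a cytokine receptor subunit gene, and Was, an actin regulator gene, had none in mesoderm (at least 12.4-fold and 12.9-fold higher). Defining genes of mature myeloid cells were at or near 0 in HPCs, with Ctss and Elane at 0 in all libraries, Lyz2 at 0 to 0.0596 CPM and Mpo at 0 to 0.179 CPM.

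Markers of other cell types were mostly too low to test. Of 11 stromal and smooth muscle genes, 6 were tested and 1 was higher, beside 16.5% of all genes. Their median was 3.53, against 0.98 in wild type. Without mesoderm library B9.3 the wild-type median was 3.49, so this difference rested on that library. That gene was Acta2, smooth muscle actin, with 3 counts in mesoderm and 165 in HPCs, a ratio of 39.0 (13.1 to 191), and it was not called without both D2.1 and B9.3 (4.09, adjusted p = 0.051). Of 11 paraxial mesoderm genes, 1 was tested, the Notch ligand gene Dll3, and it was lower (89 counts in mesoderm and 2 in HPCs). Of the neural markers 1 was tested and not called, and of the endoderm markers 0 were tested.

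Of 26 cell cycle genes tested, 3 were higher and 4 lower, beside 16.5% and 11.7% of all genes (median -0.21). The D cyclins went apart, with Ccnd3 higher by 2.99 and Ccnd1 and Ccnd2 lower (-2.83 and -1.75). The inhibitor gene Cdkn1a rose by 1.5 and the proliferation marker gene Mki67 by 1.35, and Cdk6 and Cdk4 were lower (-1.57 and -1.05). In wild type, 3 were higher and 5 lower. Among 10 tested immediate early genes, which respond to stress and handling, 1 was higher (Btg2, 1.61) and 2 were lower (Fos, -1.78, and Ier2, -1.40), with a median of 0.07. With the clone as a block, Fos was not called (-1.47, adjusted p = 0.051). Of 11 CTCF and cohesin genes tested, Wapl, which releases cohesin, was called at a step of 1.005, at the limit, and Ctcf itself had a step of -0.03 (adjusted p = 0.94).

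**Figure D4:**
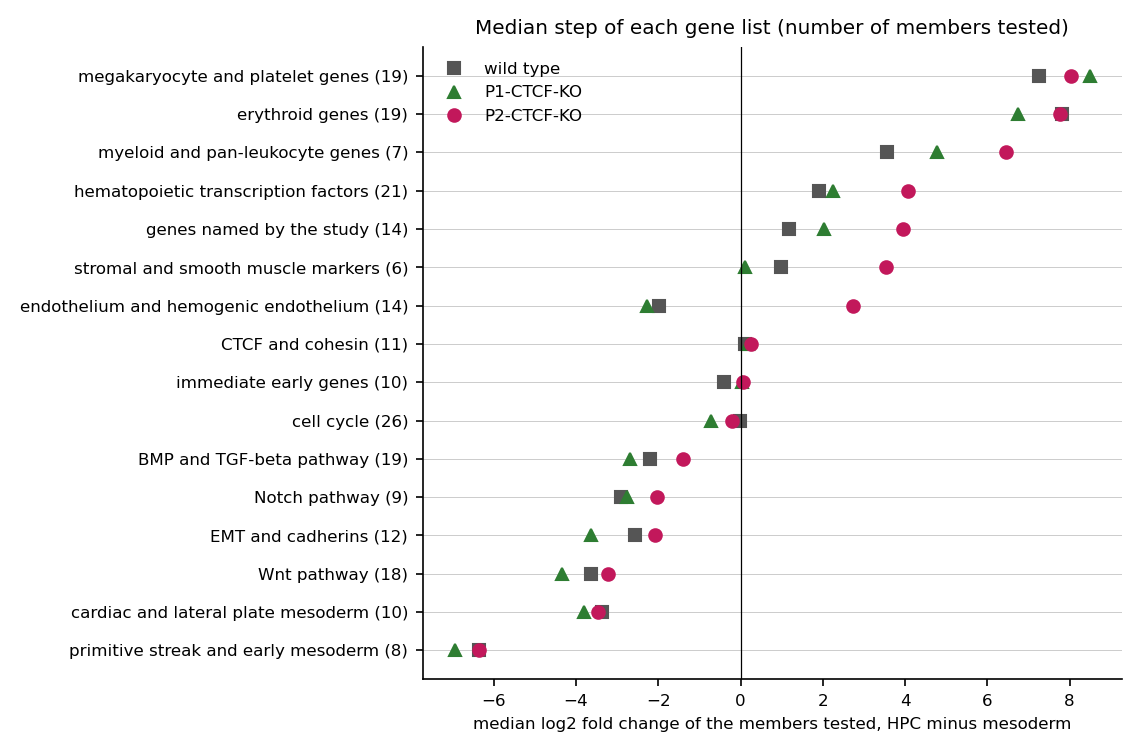
Median step (log2 HPC over mesoderm) of each list with at least 6 genes tested, in P2-CTCF-KO, wild type and P1-CTCF-KO. Values are fitted, with genes at 0 counts not set at their bound. The endothelial list stands at 2.73 in P2-CTCF-KO, -1.97 in wild type and -2.29 in P1-CTCF-KO. Without HPC library D2.1 the P2-CTCF-KO median was 1.47, and without mesoderm library B9.3 the wild-type median was -0.49.

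The next comparison asked which genes made a larger or smaller step in P2-CTCF-KO than in wild type, by the difference of both steps in the same model. It called 2 of 9170 genes (0.0218%), Cbfa2t3 and Ikzf2, both with a larger rise in P2-CTCF-KO. At an unadjusted p under 0.05 there were 643 genes (7.01%), 534 with a more positive and 109 with a more negative difference, and DESeq2 called 37 genes, 36 of them positive. Without wild-type mesoderm B9.3 there were 396 genes at an unadjusted p under 0.05, and without both B9.3 and D2.1 there were 360 and the median difference over all genes was -0.01. Of the 534 genes, 438 differed more between the genotypes in mesoderm than in HPCs, with a median P2-CTCF-KO minus wild-type difference of -1.35 in mesoderm and 0.41 in HPCs. Their steps were larger in 195, smaller in 82 and of opposite sign in 257. Of the 109 negative ones, 87 differed more in mesoderm, with medians of 0.82 in mesoderm and -0.40 in HPCs. These genes were selected by the difference, so the ends describe where it lay.

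Cbfa2t3 (chr8:125149035-125223009, mm9), which encodes the corepressor Eto2 of the Tal1 complex, stood at 0.299, 0.393 and 0.567 CPM in P2-CTCF-KO mesoderm, from 19 counts in all, and at 20.7, 14.5, 13.0, 17.6 and 17.3 CPM in HPCs. In wild type it stood at 3.11, 2.90 and 2.85 CPM in mesoderm, from 147 counts, and at 19.5, 19.4, 14.8 and 20.3 CPM in HPCs. All 3 P2-CTCF-KO mesoderm libraries were thus below all 3 wild-type ones, whereas the HPC ranges overlapped. The step was 5.28 ± 0.28 in P2-CTCF-KO and 2.64 ± 0.23 in wild type, and their difference was 2.64 ± 0.34 (adjusted p = 0.0021). By clone, the P2-CTCF-KO step as log2(CPM + 0.1) was 5.47 in D10.1, 4.97 in D2.1 and 4.70 in E9.1. Between genotypes, the difference was -2.79 in mesoderm and -0.15 in HPCs.

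Ikzf2 (chr1:69577783-69732534, mm9), which encodes the zinc finger factor Helios of the Ikaros family, stood at 0.838, 0.707 and 0.441 CPM in P2-CTCF-KO mesoderm (30 counts) and at 14.3, 13.8, 11.6, 7.57 and 8.77 CPM in HPCs. Wild-type mesoderm held 3.75, 2.90 and 4.89 CPM (200 counts) and wild-type HPCs 10.15, 9.41, 11.3 and 13.8 CPM. As for Cbfa2t3, the genotypes were apart in mesoderm and overlapped in HPCs. The step was 4.07 ± 0.30 against 1.52 ± 0.26, a difference of 2.54 ± 0.38 (adjusted p = 0.0079), with -2.54 at the mesoderm end and 0.01 at the HPC end. This call was less stable than that of Cbfa2t3, as it was lost in 5 of 24 alternatives (adjusted p up to 0.078). The span of another annotation entry overlaps each gene (Tsnax for Cbfa2t3, LOC108167347 for Ikzf2). The Tsnax entry also overlaps Adgrg1 and Sall1, and that of LOC108167347 also Fzd7, so both entries reach far beyond a single gene. The strand setting of the counting is not given in the sources used here, so reads of an overlapping entry cannot be told apart.

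Other hematopoietic factors differed at an unadjusted p alone. Among the 21 tested, the median difference of the steps was 1.89 (1.76 with genes at their bound), against 0.09 over all genes. An unadjusted p under 0.05 was reached by 10, all 10 with a positive difference, and 2 were called. Among them, Erg and Mecom had negative steps in wild type (-2.37 and -4.34) and positive ones in P2-CTCF-KO. The wild-type step of Erg was not called, and without B9.3 it was -0.68 (adjusted p = 0.73). That of Mecom was -2.86 without B9.3 (adjusted p = 0.075) and -2.92 without both B9.3 and D2.1 (adjusted p = 0.028). The P2-CTCF-KO step of Mecom was not called. The median difference between genotypes was -1.95 in mesoderm and -0.10 in HPCs. Ikzf1, which encodes Ikaros, stood at 0.180, 0.0786 and 0.126 CPM in P2-CTCF-KO mesoderm against 0.394, 1.76 and 2.80 CPM in wild type, and its steps were 5.99 ± 0.73 and 2.53 (difference 3.46, adjusted p = 0.29). Tal1 had steps of 3.70 and 1.91. Without the P2-CTCF-KO HPC library D2.1 and the wild-type mesoderm library B9.3, the median difference was 1.74 and 8 had an unadjusted p under 0.05, all 8 positive. The list summed to 23.9, 24.5 and 28.8 CPM in P2-CTCF-KO mesoderm and to 116, 50.4 and 77.4 CPM in wild-type mesoderm, the opposite order to that of the streak genes, and the part of either in the other was not tested.

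**Figure D5:**
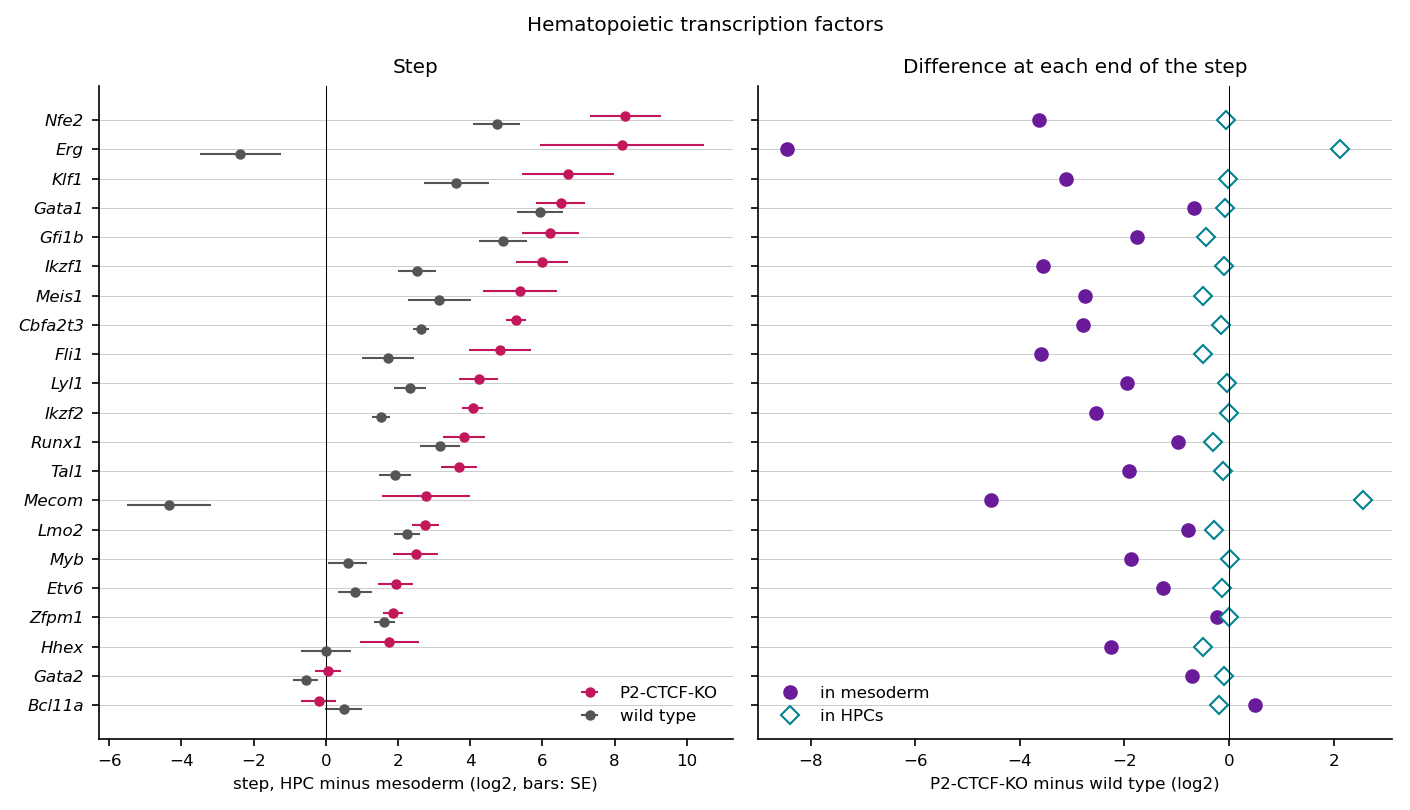
Left, the step (log2 HPC over mesoderm ± SE) of hematopoietic transcription factors in P2-CTCF-KO and wild type. Right, the P2-CTCF-KO minus wild-type difference (log2) of the same genes in mesoderm and in HPCs, where the medians are -1.95 and -0.10. Nfe2, Klf1 and Erg had no counts in P2-CTCF-KO mesoderm, so their fitted values depend on the prior count of the model.

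The steps of endothelial genes had medians of opposite sign in P2-CTCF-KO and wild type. Of 22 listed genes, 14 were tested. In P2-CTCF-KO 7 were higher in HPCs and 1 was lower, beside 16.5% and 11.7% of all genes. The median step was 2.73, or 2.12 with a gene at its bound. In wild type 0 were higher and 7 lower, beside 13.3% and 13.9% of all genes (median -1.97). The list holds Kdr, on which the day 4 cells were sorted and which is the gene called lower, so that call is no finding. The median difference of the steps was 4.66, and 11 of 14 had an unadjusted p under 0.05, all 11 positive, but none passed the adjusted threshold in edgeR and 5 did in DESeq2. Again the median difference between genotypes was larger in mesoderm (-3.26) than in HPCs (0.75). Pecam1, the endothelial adhesion gene also known as CD31, stood at 0.120, 0.314 and 0.126 CPM in P2-CTCF-KO mesoderm and at 13.1, 7.12, 11.9, 3.12 and 5.66 CPM in HPCs, a rise of 5.45 ± 0.96 (adjusted p = 2.5e-04). In wild-type mesoderm it stood at 9.12, 0.311 and 2.35 CPM, and the wild-type step of 0.74 was not called, though without B9.3 it was 2.22 (adjusted p = 0.027). Wild-type mesoderm values of Pecam1 reached from near the P2-CTCF-KO level to the HPC level.

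Of the endothelial genes, Cdh5 and Egfl7 lost their P2-CTCF-KO calls without HPC library D2.1. Flt1 and Tie1, and Erg of the transcription factor list, kept theirs in P2-CTCF-KO. Cdh5, which encodes VE-cadherin, stood at 0.0599, 0.0786 and 0.252 CPM in P2-CTCF-KO mesoderm and at 0.558, 1.05, 14.9, 1.43 and 3.11 CPM in HPCs (step 4.94 ± 1.65, adjusted p = 0.024), where 14.9 CPM is library D2.1, and without it the step was 3.43 and not called (adjusted p = 0.087). In wild-type mesoderm it stood at 23.3, 0.311 and 2.19 CPM, where 23.3 CPM is B9.3. Without B9.3 the wild-type step was -0.49 and not called. Without both D2.1 and B9.3, the P2-CTCF-KO step of Cdh5 was 3.34 and called (adjusted p = 0.034). Egfl7, also of this list, had a P2-CTCF-KO step of 2.66. This became 1.47 without D2.1 (adjusted p = 0.16) and 1.39 without both (adjusted p = 0.083). Erg, an ETS factor of endothelium and blood stem cells, had no counts in P2-CTCF-KO mesoderm and stood at 0.159, 1.94, 8.47, 0.713 and 1.005 CPM in HPCs, at least 37.1-fold higher. Flt1, a VEGF receptor gene, stood at 2.21, 0.550 and 1.13 CPM and then at 19.6, 4.05, 16.1, 2.32 and 3.93 CPM (rise of 2.80 ± 0.75). Tie1, an endothelial receptor gene, had 2 counts in mesoderm and 216 in HPCs, a ratio of 76.6 (20.95 to 637). Without D2.1, the steps were 6.78 for Erg (adjusted p = 0.019), 2.49 for Flt1 (adjusted p = 0.011) and 5.52 for Tie1 (adjusted p = 0.0049).

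Without library D2.1, 5 of 13 tested endothelial genes were higher and 3 lower in P2-CTCF-KO, with a median of 1.47. Without B9.3, 2 were higher and 2 lower in wild type, with a median of -0.49. Without both, 6 of 14 were higher and 3 lower in P2-CTCF-KO, the median difference of the steps was 1.89 and 5 genes had an unadjusted p under 0.05, all 5 positive. Both medians kept their sign, and the median difference was smaller than with all libraries.

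Only 5 genes were called in opposite directions in both genotypes, all higher in P2-CTCF-KO HPCs and lower in wild-type HPCs, and 0 the other way. They were Cdh5, Tspan12, which encodes a tetraspanin of vascular Wnt signalling, Igf1, a growth factor gene, Arhgap31 and Myzap, which encodes a protein of cell junctions. Their P2-CTCF-KO steps ran from 1.02 for Tspan12 to 4.94 for Cdh5 and their wild-type steps from -1.38 for Tspan12 to -3.17 for Cdh5. None passed the threshold for the difference itself, with Tspan12 nearest (2.40, adjusted p = 0.086). Without HPC library D2.1, none of the 5 was called higher in P2-CTCF-KO. Without both D2.1 and B9.3, 0 genes were called in opposite directions, so these 5 opposite calls depended on libraries that stood apart. For Tspan12, the difference itself was called without B9.3 (2.66, adjusted p = 0.027) and without both (2.33, adjusted p = 0.019). Its steps without both were 0.66 in P2-CTCF-KO, under the limit, and -1.67 in wild type.

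For other lists, the median difference between the steps was 0.41 for erythroid genes (0.19 with bounds), 0.19 for megakaryocyte genes (-0.15 with bounds) and 3.08 for the 7 leukocyte genes (1.46 with bounds), where Lcp1, an actin-bundling protein gene, alone had an unadjusted p under 0.05. For the leukocyte genes it was 0.13 without wild-type mesoderm B9.3 and 0.19 without both B9.3 and D2.1. It was 0.16 for Notch, 0.54 for BMP and TGF-beta, 0.73 for Wnt (0.51 with bounds) and 0.04 for cell cycle genes, but -0.40 for BMP and TGF-beta and -0.40 for Wnt without library D2.1, so both signs depended on it. Of the 17 genes that the study itself names for expression, 14 were tested, 11 were higher and 3 lower in P2-CTCF-KO, and the median difference from wild type was 2.02 (1.66 with bounds). These were picked on the same samples and share members with the other lists, so their direction is no independent evidence.

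The P1-CTCF-KO clones, edited in the same way at the other promoter, gave a second comparison, which shares the P2-CTCF-KO libraries with the one against wild type. Between the P2-CTCF-KO and P1-CTCF-KO steps, 0 genes were called by edgeR (0%), with 627 at an unadjusted p under 0.05 and a smallest adjusted p of 0.090, and DESeq2 called 5. Cbfa2t3 had a P1-CTCF-KO step of 3.32, and the P2-CTCF-KO step exceeded it by 1.96 ± 0.35 (adjusted p = 0.090). Ikzf2 had a P1-CTCF-KO step of 2.52, and the difference was 1.54 (adjusted p = 0.47). In P1-CTCF-KO mesoderm, Cbfa2t3 stood at 2.49, 1.56 and 2.34 CPM, above all 3 P2-CTCF-KO mesoderm libraries and below all 3 wild-type ones. The endothelial list had 0 genes higher and 5 lower in P1-CTCF-KO, with a median step of -2.29. Its median difference from P2-CTCF-KO was 4.49, with 10 of 14 at an unadjusted p under 0.05. This holds all libraries, and the P2-CTCF-KO median alone was 1.47 without HPC library D2.1. P1-CTCF-KO mesoderm E9.1 held 148 CPM of endothelial genes, against 94.9 in E7.1 and 60.2 in E7.2. Hematopoietic factors had 16 higher and 1 lower in P1-CTCF-KO, with a median of 2.25.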

How the data were processed

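Poly(A)-minus RNA-seq counts of 21 mesoderm and HPC libraries were used, grouped by their labels. The counts are as deposited: the authors mapped reads with STAR to mm9, removed duplicates with picard and counted reads over exons and introns with featureCounts, without normalization. The CTCF peak positions are start and end alone, as deposited by the authors from 416B cells, and motif shares left out peaks and windows of chromosome 18. The annotation and strand setting are not given in the sources used here. Of 25146 entries, 5413 had no counts. Ribosomal RNA and entries of several loci or spans over 2.5 Mb (187) stayed in the fit.

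The tests used edgeR 4.0.16 under R 4.3.3 (TMM, filterByExpr with a minimum count of 10, quasi-likelihood, Benjamini-Hochberg) in 1 model of 6 genotype-by-stage groups, and the difference of 2 steps is a contrast of that model. The common biological coefficient of variation was 0.337. CPM were computed with TMM factors. Clones link the stages by their labels, but deviations of a clone in mesoderm and in HPCs correlated weakly (r from -0.0709 to 0.201 over 9170 genes), and the clone as a block was an alternative. Other alternatives were DESeq2 1.42.0, other size factors, no count filter, no limit on the fold change, fewer groups in the fit, summed libraries, without ribosomal entries, a pseudocount of 0.1 and each library left out in turn. Leaving out both D2.1 and B9.3 was added after seeing the data. The code was tested on simulated counts.

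The 20 genes with the smallest adjusted p whose libraries do not overlap (10 a direction), genes called in the difference, genes the study names, Runx1 and its neighbours, and up to 4 called members of each list were named by rule. Other genes were chosen after their values were seen. The members, the 22 gene lists and this rule were chosen with earlier results of these data known. A fold against a group without counts is a bound at 3 counts over the group, and ratios from 1 to 3 counts carry 95% exact binomial intervals, both for counting error alone.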

Additional observations from a re-analysis of the deposited data

Results flagged for a closer look

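In groups of 4 or 5 libraries, the gap between the extreme library and the next was set against the group's range. Of 135 groups of a named gene, 31 passed the critical value. Its rate of about 1 in 20 by chance holds for normally distributed values, and CPM with zeros are not. A gene with counts in only 1 library of a group has a gap of 1 whatever its level, so the number passed is a description. The gaps fell on few libraries, and genes measured in the same library are not independent.

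In P2-CTCF-KO HPCs, library D2.1 was the extreme one for 14 genes. It was the highest, with a gap as a share of the range, for Eomes (0.907), Mixl1 (1), Sall1 (1) and Pou5f1 (1), genes of early embryonic cells, for the signalling genes Fzd7 (0.781), Axin2 (0.851), Notch2 (0.895), Notch3 (0.919), Smad1 (0.851) and Id3 (1), and for Fn1 (0.888), Ccnd1 (0.783) and Erg (0.785), and it was the lowest for Nmnat3 (0.721). In the second library of clone D2.1, the 16 primitive streak genes summed to 0.0891 CPM and the 22 endothelial genes to 19.8 CPM. Library D10.1 was the highest for Itgb3 (0.874), Itga2b (0.887), Thbs1 (0.864), Plek (0.853), Vav1 (0.835), Laptm5 (0.804), Ccnd3 (0.821) and Meis1 (0.811).

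In wild-type HPCs, library B9.3 was the highest for the mesoderm and stromal genes Pdgfra (1), Hand1 (1), Foxf1 (1), Gata6 (0.889), Cdh11 (0.975) and Acta2 (0.956), its second library for Fzd7 (0.834) and Hes1 (0.842), and C8.1 for Tal1 (0.856). What sets these libraries apart was not tested. The step differed between P2-CTCF-KO and wild type by 2.64 for Cbfa2t3 and by 2.54 for Ikzf2, as described above.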

How the results depend on the processing

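The P2-CTCF-KO step called 1955 (P2-CTCF-KO libraries alone) to 3418 genes (no limit on the fold change), and 2263 to 3040 with 1 library left out, the highest without HPC library D2.1. With the clone as a block it called 2453, and the block left 2 genes for the difference from wild type and 0 for that from P1-CTCF-KO. Among single genes named, the block ended the call of Fos (-1.47) and put Wapl under the limit (0.96).

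The difference from wild type called 37 genes with DESeq2 and 1 with P2-CTCF-KO and wild-type libraries alone, and 1 to 4 with 1 library left out. Cbfa2t3 was called in every alternative run, and Ikzf2 was not called without wild-type mesoderm C8.1, P2-CTCF-KO mesoderm D2.1 or E9.1, without both D2.1 (HPC) and B9.3 (mesoderm), or in the smaller fit. The difference from P1-CTCF-KO called 5 genes with DESeq2 and 1 without the count filter, and 0 to 6 with 1 library left out, with 6 without P2-CTCF-KO HPC library D10.1 and 3 without P1-CTCF-KO mesoderm E7.2. Leaving out 1 library moved the permutation value of Runx1 between 3.11 and 3.82, with exact p from 0.0571 to 0.0952, the smallest that fewer libraries allow. Of 1302 values of 77 steps named by the rule under the alternatives, 0 changed sign and 22 lost the call, for Cdk4, Btg2, Fos, Acta2 and Wapl. The cause was not tested.

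Genes with few counts in P2-CTCF-KO mesoderm, such as Cbfa2t3 with 19, limit how exactly a step is known, and 3 clones limit how far it extends beyond them.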

Other observations

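Beyond the naming rule, Airn, Tspan12 and Jazf1, chosen after their values were seen, came close to the threshold for a difference between the P2-CTCF-KO and wild-type steps. Each had steps of opposite sign in the 2 genotypes. Airn, a long noncoding RNA gene antisense to Igf2r, had a difference of 3.04 (adjusted p = 0.082), with steps of 2.53 in P2-CTCF-KO and -0.50 in wild type. It was called in 4 of 25 settings, and the strand setting of the counting is not given, so reads of Airn and Igf2r where they overlap cannot be told apart. Tspan12 had a difference of 2.40 (adjusted p = 0.086), with steps of 1.02 and -1.38. It was also called in 4 of 25 settings, among them without B9.3 and without both B9.3 and D2.1. Jazf1 had a difference of 2.75 (adjusted p = 0.089), with steps of 2.71 and -0.04, and was called in 1 of 25 settings, with DESeq2.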
